A study of Mus musculus with 16 samples.

Results

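Liver at day 7 after partial hepatectomy was compared with liver at day 0 of the same arm, which is a comparison of 8 of the 16 arrays of the series. The members were the 4 arrays labelled day 7 and the 4 labelled day 0, and each day held 1 array of each of 4 arms. All mice were of the background 129SV/C57BL/6, and the labels give every arm the same genotype, Metff/ff:ERCre+/+, that is Met alleles flanked by recombination sites and a Cre recombinase that tamoxifen activates. In the MET_KO arm this system had deleted exon 16 of Met, the gene of the hepatocyte growth factor receptor, while the MET_FLOX arm is named for the allele before deletion. The MET_FLOX_canertinib and MET_KO_canertinib arms were fed canertinib, a drug that inhibits EGFR and related receptors, at an intended 80 mg/kg. The block was systemic per the design text, so it was not limited to hepatocytes. Age, sex, whether MET_FLOX mice received tamoxifen, the time on canertinib before day 0, and whether an array holds 1 animal or a pool are not given in the sources used here. A p-value below therefore measures the spread between the 16 arrays, which may be technical in part. In the day 7 test the 4 arms, which differ in Met deletion and drug, stand in for replicates. The spread thus also holds differences between arms in their response at days 2, 7 and 14. These cannot be told apart from variation between replicates.

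After partial hepatectomy the hepatocytes that are left enter the cell cycle, divide and restore the liver's mass, while metabolic tasks go on. MET and EGFR are the main receptors that carry the growth signal to hepatocytes. In the mouse most hepatocyte division lies in the first days, and the growth of matrix and vessels follows it. The question addressed by the comparison is which transcripts still stood apart from the starting level at day 7, and whether the blocks of MET and EGFR changed that.

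Each value is an array signal from MAS5, a linear intensity. Differences are log2(signal + 16) at day 7 minus day 0, and the mean of the 4 within-arm differences is the reported value. Array medians lay between 166.7 and 251.4 over these 8 arrays and fell into a low set with the 4 arrays without canertinib and a high set with the 4 arrays with it. Each pair of days thus lay inside 1 set. Any difference in response between the arms with and without canertinib cannot be told apart from the array set. The ratio of the 3′ to the 5′ control probe sets of Gapdh, a sign of RNA quality, went from 0.787 to 0.869 in MET_FLOX, 0.869 to 0.817 in MET_KO, 1.08 to 1.52 in MET_FLOX_canertinib and 0.95 to 1.14 in MET_KO_canertinib. The tissue label was checked with 7 hepatocyte marker genes, none of which was at 0. Alb, which encodes albumin, gave signals of 32031 to 99691 at day 0 and 35404 to 117413 at day 7. The summed signal of the 7 markers lay between 241111 and 475452 at day 0 and between 247669 and 496756 at day 7.

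At day 7, 1 gene of 13577 was called different from day 0, and no other gene passed an adjusted p of 0.05 in limma. This gene, Etfbkmt, encodes the mitochondrial methyltransferase of the electron transfer flavoprotein beta subunit. Its signals were 1689, 999, 1215 and 1659 at day 0 in MET_FLOX, MET_KO, MET_FLOX_canertinib and MET_KO_canertinib. At day 7 they were 5588, 4069, 4094 and 3519 in the same order. All 4 day 7 signals lay above all 4 day 0 signals, and within each arm day 7 was the highest of the 4 days. Etfbkmt rose by 1.64 on the log2 scale (SE 0.16, n = 4 arms, limma adjusted p = 0.00175), which is 3.11-fold. A second probe set of Etfbkmt, dimmer on average, differed by 0.46, with a value below 0 in MET_FLOX_canertinib, and the mean over both probe sets gave 1.05 (adjusted p = 0.185, not called). With the 8 arrays alone in the fit, the estimate was the same and limma's adjusted p was 0.169, so that no gene was called. It was called in each of the 16 fits that left out 1 array. Without the arm MET_FLOX, MET_KO or MET_FLOX_canertinib it was not called any more, with adjusted p-values of 0.137, 0.23 and 0.0511.

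The background against which any count is to be read was low at the called level and larger below it. Called higher genes made up 0.00737% of the genes tested, and the called lower genes 0 of 13577. At an unadjusted p below 0.05, limma gave 962 genes (7.09%) in either direction, 453 genes higher (3.34%) and 509 lower (3.75%). Without regard to a test, 1050 genes (7.73%) were higher in all 4 arms and 1211 (8.92%) were lower in all 4. The 4 day 7 signals lay all above the 4 day 0 signals for 178 genes (1.31%) and all below them for 129 (0.95%). The median SE of a gene was 0.24 on the log2 scale, and the median difference of all genes was -0.015. Differences beyond 1 log2 unit in either direction were found in 9.04% of genes in the MET_FLOX arm, 9.1% in the MET_KO arm, 14.3% with canertinib alone (MET_FLOX_canertinib) and 8.57% with both blocks (MET_KO_canertinib). The arm with the largest share was also the arm whose Gapdh 3′ to 5′ ratio moved most, and the part of RNA quality in this share was not tested. Across genes, the responses of any 2 arms correlated with r between 0.05 and 0.18, a description over genes that are not independent replicates. Only 7 genes were above 1 in all 4 arms, and 1 gene was below -1 in all 4.

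Among the genes that were not called, several lay outside the spread of the day 0 arrays in the same direction in all 4 arms. Hspa1b, the stress-induced HSP70 chaperone, gave 883, 768, 768 and 531 at day 0 and 5192, 7946, 2151 and 1796 at day 7, in the order MET_FLOX, MET_KO, MET_FLOX_canertinib, MET_KO_canertinib. Each later run of 4 values follows this order of the arms. Every day 7 signal was above every day 0 signal, and the arms without canertinib were the highest. The difference was 2.27 (SE 0.37, limma adjusted p = 0.242, not called), and the other 2 probe sets of the gene gave 2.22 and 1.81. Its probe sets may also read the near-identical copy Hspa1a.

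Noct, a circadian phosphatase of NADPH and NADP+, had signals of 1027, 635, 1287 and 1162 at day 0 and of 2791, 4027, 3184 and 4030 at day 7. The groups did not overlap, and the difference was 1.78 (SE 0.32, limma adjusted p = 0.27, not called). Pdia5, a protein disulfide isomerase of the endoplasmic reticulum, went from 1881, 2348, 1494 and 1083 to 3037, 3288, 2541 and 2712. It was higher in 4 of 4 arms with a difference of 0.81 (SE 0.17, adjusted p = 0.399). Cd99, a surface glycoprotein of leukocytes and endothelium, had a difference of 0.84 (SE 0.16, adjusted p = 0.382) with day 0 signals from 844 to 1220 and day 7 signals from 1485 to 2167. Cdhr5, a protocadherin of epithelial brush borders, lay between 4259 and 5422 at day 0 and between 6836 and 7438 at day 7, a difference of 0.61 (SE 0.13). Atp11a, a phospholipid flippase, had 374 to 607 at day 0 and 719 to 2201 at day 7 (1.21, SE 0.26). Mtmr11, a myotubularin-related protein, was 1.84 higher (SE 0.41), but 6 of its 8 signals were below the median of their array, and its other probe set, of similar brightness, gave -0.19.

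Prtn3, which encodes proteinase 3 of neutrophil granules, gave 930, 74.7, 100.5 and 1155 at day 0 and 3717, 1722, 1836 and 2123 at day 7. The day 0 arrays fell into a high pair, MET_FLOX and MET_KO_canertinib, and a low pair, while the 4 day 7 arrays were all above both. The difference was 2.77 (SE 0.55, adjusted p = 0.382). Of 6 other neutrophil marker genes tested, 3 were higher in all 4 arms (against 7.73% of all genes) and their median difference was 0.49. The summed neutrophil signal lay between 2032 and 3498 at day 0 and between 2630 and 4905 at day 7, and its part in the value of Prtn3 was not tested.

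The genes with the smallest p-values in the lower direction included enzymes of lipid supply. Me1, the malic enzyme that makes NADPH for fatty acid synthesis, gave 10800, 14926, 11335 and 9464 at day 0 and 8903, 4669, 2840 and 3817 at day 7. All day 7 signals were below all day 0 signals, but the value in MET_FLOX was -0.28, nearest to 0, against -1.31 to -1.99 in the others. The mean was -1.31 (SE 0.23, limma adjusted p = 0.27, not called), and a second probe set gave -1.21. Without the MET_FLOX day 7 array Me1 was called, with -1.58 and adjusted p = 0.0216. Pklr, the liver pyruvate kinase, had 3032, 4032, 3163 and 2823 at day 0 and 1219, 1665, 1757 and 1062 at day 7. The groups did not overlap and the difference was -1.20 (SE 0.23, adjusted p = 0.382). The other 2 probe sets of Pklr gave -0.43 and -1.91, and it was called at -1.20 without the MET_KO_canertinib day 2 array (adjusted p = 0.0212).

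Slc10a1, the transporter NTCP that takes bile acids up from blood, gave 19720, 23975, 12067 and 12772 at day 0 and 10920, 13761, 7024 and 8150 at day 7. It was lower within each arm by a similar amount, from 0.65 to 0.85, although the arms started from different levels. The mean was -0.77 (SE 0.18, limma adjusted p = 0.399, not called).

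Tab1, an activator of the kinase TAK1, went from 670, 708, 788 and 999 to 221, 427, 144 and 133, a difference of -1.84 (SE 0.42, adjusted p = 0.399). Its day 7 signals were all below its day 0 signals, but its other probe set gave 0.20. Ubl4b (-0.97) and Chic1 (-0.88) also had no overlap between days. Pithd1 (-0.80), Ttc3 (-0.85) and 4933414I15Rik (-1.66) were lower in 4 of 4 arms with overlap between days, and 5 of 8 signals of 4933414I15Rik were below the median of their array. Of the 6 other probe sets of Ttc3, all far dimmer, 2 had a mean above 0 (range -1.44 to 0.37), and those of Pithd1 gave -0.46 and 0.09. Each of the 6 genes had an adjusted p of 0.399 and was not called.

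Siglec1 and Ccl8, a lectin and a chemokine of macrophages, were lower in 4 of 4 arms. Ccl8 gave 592, 628, 1225 and 1322 at day 0 and 330, 394, 709 and 681 at day 7 (-0.80, SE 0.17, adjusted p = 0.399). Its day 7 signals in the canertinib arms overlapped the day 0 signals of the arms without it. For Siglec1 the brightest probe set had a difference of -1.26 (SE 0.26), but its other 2 probe sets, both dim, gave 0.36 and 0.31. The direction of Siglec1 therefore differs between its probe sets.

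**Figure D1:**
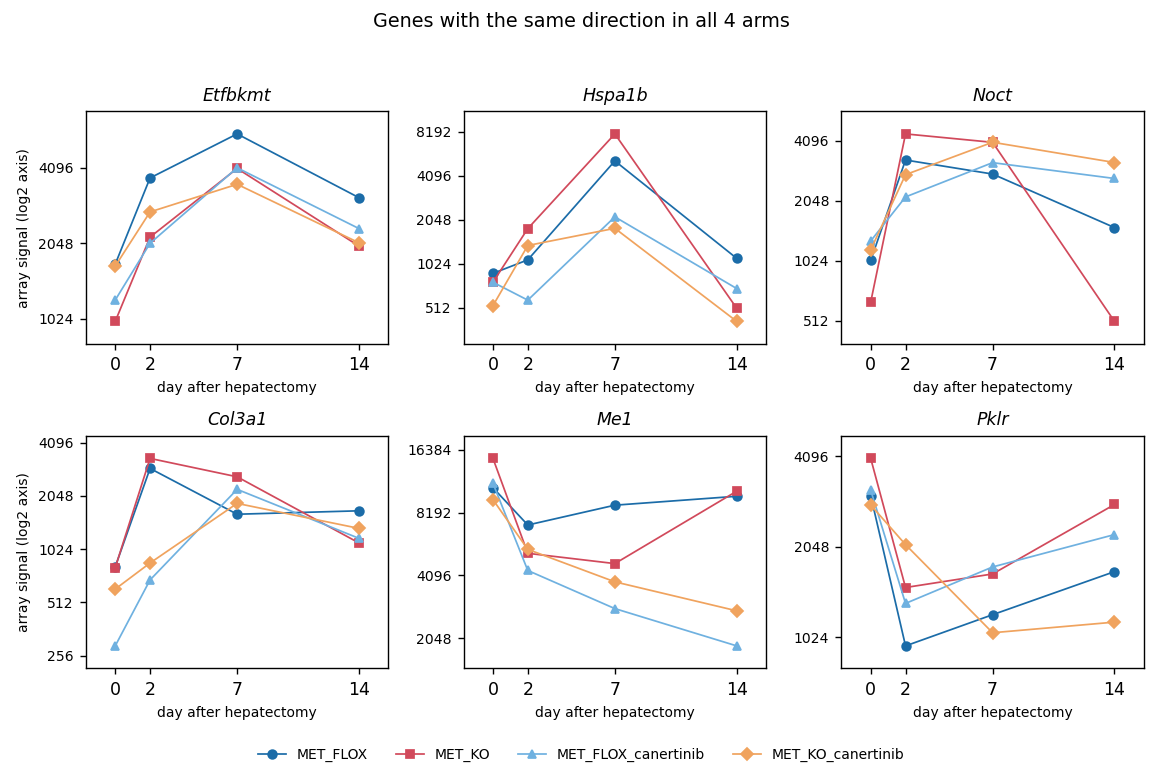
Array signal (log2 axis) against the day after hepatectomy for 6 genes, with 1 point per array and lines joining the 4 arms. Etfbkmt peaks at day 7 in each arm, Hspa1b, Noct and Col3a1 are above day 0 at day 7 in each arm, and Me1 and Pklr are below it, with the MET_FLOX point of Me1 nearest to its day 0 level.

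Genes of mitosis were higher in value at day 7 than at day 0, by more than genes of DNA replication and by less than at day 2. Of 27 genes of G2/M and mitosis tested, 13 were higher in all 4 arms (against 7.73% of all genes) and 1 was lower in all 4. At an unadjusted p below 0.05, 6 were higher (against 3.34%), but none of the 27 was called. Their median difference was 0.79 at day 7 and 2.19 at day 2, where all genes had -0.015 at day 7. By arm the medians were 1.11, 1.36, 0.22 and 0.48 in MET_FLOX, MET_KO, MET_FLOX_canertinib and MET_KO_canertinib. Of 26 genes of S phase and DNA replication, 8 were higher in all 4 arms. None reached an unadjusted p of 0.05 in the fit of all arrays, whose spread also holds differences between arms at day 2. The median of the 26 was 0.18 at day 7, against 1.39 at day 2.

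Birc5, which acts in chromosome segregation, gave 48.1, 19.4, 44.6 and 48.0 at day 0 and 727, 382, 81.0 and 233 at day 7. Of its 8 signals 6 were under the median of their array, those of day 0 and of the canertinib arms at day 7. The size of the difference, 2.41 (SE 0.57, limma adjusted p = 0.399), thus depends on the added 16. Ube2c, the ubiquitin-conjugating enzyme of mitotic exit, had 202, 62.2, 22.4 and 35 at day 0 and 504, 273, 492 and 247 at day 7 (2.31, SE 0.55). Of its 8 signals 3 were below the median of their array, so this size also depends on the added 16. Cdk1, the kinase that starts mitosis, went from 294, 51.8, 102 and 89.1 to 997, 784, 192 and 297 (1.92, SE 0.49), highest in the arms without canertinib. For Cdk1, 4 of the 8 signals were below the median of their array. Cdc20, an activator of the anaphase-promoting complex, gave 590, 279, 354 and 483 at day 0 and 1706, 1261, 734 and 792 at day 7. It was 1.33 higher (SE 0.41, adjusted p = 0.507) with no overlap between the days.

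Of the replicative helicase, Mcm2 was 0.71 higher (SE 0.35, adjusted p = 0.706) and Mcm4 0.61 higher (SE 0.35, adjusted p = 0.735), each in 4 of 4 arms. Their day 7 signals were 411 to 677 and 479 to 670, against 232 to 414 and 248 to 465 at day 0. For Mcm2 the ranges overlapped and for Mcm4 they did not. With the 8 arrays of days 0 and 7 alone in the fit, limma's unadjusted p was 0.0199 for Mcm2 (SE 0.24) and 0.0135 for Mcm4 (SE 0.19). Orc1, of the same list but lower in 4 of 4 arms, had an unadjusted p of 0.0355 in that limma fit. No gene was called there. The other probe set of Orc1, which is dimmer, differed by 0.86, 0.24, 0.70 and -0.50 in the arms (mean 0.33).

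Among 17 genes of the G1 cyclins, CDK inhibitors and p53 targets, 4 were higher in all 4 arms (against 7.73% of all genes). None was lower in all 4 (against 8.92%). Ccnd1, the cyclin that growth factors induce, gave 1802, 1152, 1249 and 1205 at day 0 and 3632, 2187, 5293 and 2508 at day 7. The days did not overlap, and the difference of 1.26 (SE 0.29, adjusted p = 0.399, not called) was found with values of 1.05 and 2.07 under canertinib and 0.92 and 1.0 without it. Cdkn2c, an inhibitor of CDK4 and CDK6, was 0.79 higher (SE 0.27) and Phlda3, a p53 target that restrains AKT, 0.86 higher (SE 0.32), both in 4 of 4 arms with no overlap between days.

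The lipid synthesis genes were lower in value as groups, with the least difference in MET_FLOX. In the cholesterol synthesis list, all 20 genes tested had a mean difference below 0, 6 were lower in all 4 arms (against 8.92% of all genes), and 15 were lower at an unadjusted p below 0.05 (against 3.75%). None was called. The list's median was -0.76, and by arm it was 0.13, -0.55, -1.58 and -1.28 in MET_FLOX, MET_KO, MET_FLOX_canertinib and MET_KO_canertinib. In MET_FLOX, 13 of the 20 genes were above 0, against 2 in MET_KO, 0 in MET_FLOX_canertinib and 2 in MET_KO_canertinib. The median for canertinib minus no canertinib was -1.25, with 9 of 20 genes at an unadjusted p below 0.05 (against 2.4% of all genes), none of them called.

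Pmvk, phosphomevalonate kinase, gave 1383, 1958, 795 and 587 at day 0 and 1026, 601, 256 and 386 at day 7. It was lower in 4 of 4 arms (-1.07, SE 0.23, limma adjusted p = 0.399), but the arms differed in level and the days overlapped. Nsdhl, a sterol dehydrogenase that removes methyl groups from the ring, gave 6640, 6399, 4102 and 5062 at day 0 and 6649, 3684, 1354 and 1506 at day 7. It was flat in MET_FLOX and lower in the other 3 arms (-1.03, SE 0.31, adjusted p = 0.49). Idi1, isopentenyl diphosphate isomerase, went from 8578, 8604, 4938 and 8052 to 10671, 4446, 946 and 1653. The 2 canertinib arms had -2.36 and -2.27, MET_KO had -0.95 and MET_FLOX had 0.31. Hsd17b7, an enzyme of the same pathway's later steps, had 0.07, -0.42, -1.22 and -1.32 in the order of the arms.

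In the fatty acid and triglyceride synthesis list, 17 of 18 genes had a mean difference below 0. In all 4 arms 9 were lower (against 8.92% of all genes), and 6 were lower at an unadjusted p below 0.05 (against 3.75%). The median was -0.60, with -0.07, -1.17, -0.91 and -0.23 in MET_FLOX, MET_KO, MET_FLOX_canertinib and MET_KO_canertinib. Fasn, fatty acid synthase, gave 7752, 22377, 8340 and 5766 at day 0 and 5320, 4552, 2084 and 3591 at day 7. All day 7 signals were below all day 0 signals, with a difference of -1.38 (SE 0.39, limma adjusted p = 0.468). Thrsp, a nuclear protein of lipogenic tissues, went from 10458, 23890, 37093 and 25848 to 6806, 7037, 1121 and 6735. The value was nearest to 0 in MET_FLOX, at -0.62, and farthest from it in MET_FLOX_canertinib, at -5.03 (mean -2.34, SE 0.67, adjusted p = 0.478).

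**Figure D2:**
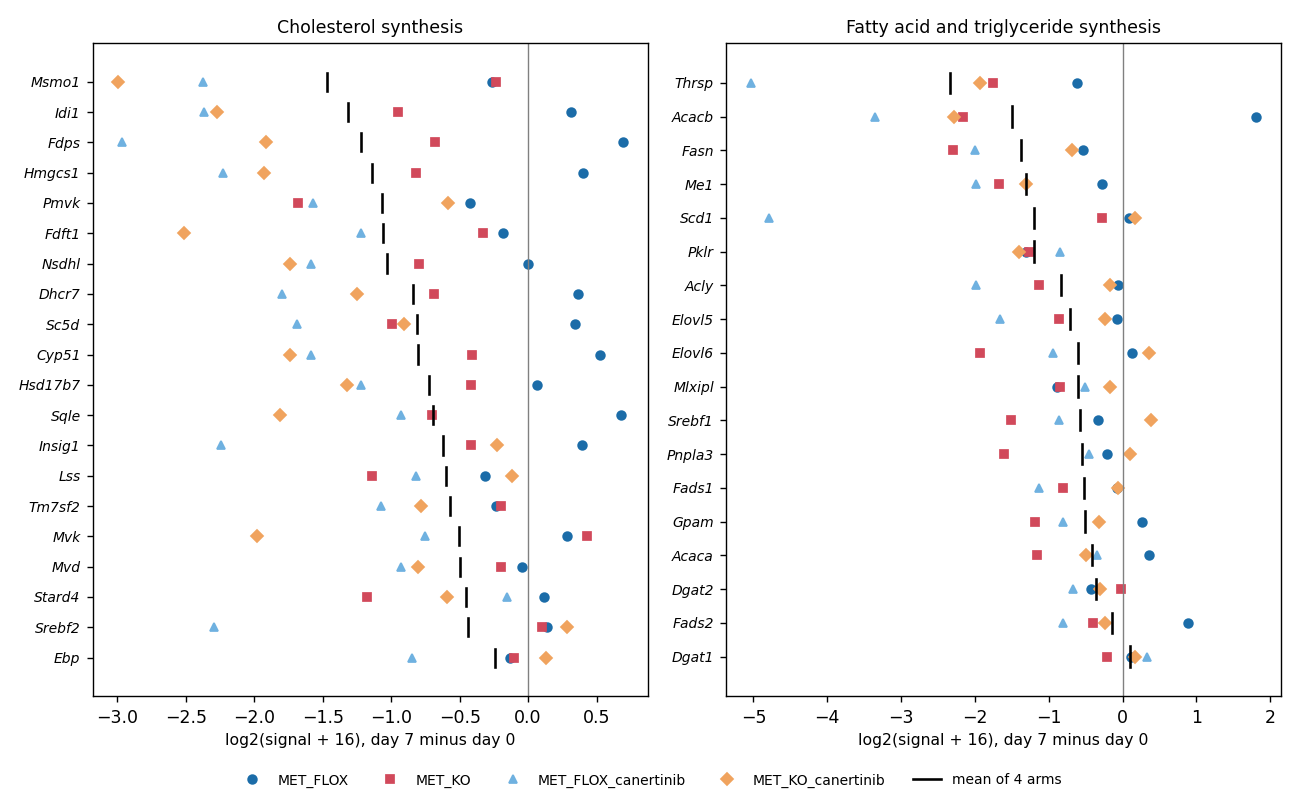
Difference in log2(signal + 16), day 7 minus day 0, for the 20 cholesterol synthesis genes and the 18 fatty acid and triglyceride synthesis genes tested, with 1 symbol per arm and a black bar at the mean of 4 arms. The bars of all 20 cholesterol genes and of 17 of the 18 others lie below 0, while 13 of the 20 MET_FLOX points of the first group lie above it.

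Genes of matrix and cytoskeleton were higher in value. Of 23 collagen and matrix genes, 11 were higher in all 4 arms (against 7.73% of all genes) and 0 lower in all 4. At an unadjusted p below 0.05, 7 were higher (against 3.34%), and the median was 0.30. Col3a1, a chain of fibrillar collagen made by stellate cells and fibroblasts, gave 813, 804, 291 and 608 at day 0 and 1612, 2623, 2228 and 1856 at day 7. The days did not overlap (1.78, SE 0.35, limma adjusted p = 0.382), and a second, dim probe set gave 0.19. Postn, periostin, went from 240, 339, 121 and 216 to 419, 671, 694 and 608 (1.38, SE 0.34). Sparc, a matrix glycoprotein, was 0.89 higher (SE 0.22), and Col4a1, of basement membranes, 1.03 higher (SE 0.26), both in 4 of 4 arms with adjusted p-values of 0.399 and 0.401.

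Of 8 stellate cell markers, some of which are also in the matrix list, 2 were higher in all 4 arms (against 7.73% of all genes). The median of the 8 was 0.26, with -0.13 to 0.74 between the arms. Their summed signal lay between 8182 and 13732 at day 0 and between 11364 and 15718 at day 7, and in MET_KO it was 13732 at day 0 and 11364 at day 7. Rgs5, a marker of pericytes, was 1.70 and 1.54 higher in the canertinib arms and differed by 0.46 and -0.22 in the others. Its other 3 probe sets, all dimmer, had means from 0.165 to 0.938 and did not all share this difference between arms. The brightest of these gave -0.007 and -0.12 in the canertinib arms and 0.67 and 0.12 in the others. In whole liver, more cells of a type and more RNA per cell cannot be told apart.

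Of 24 cytoskeletal genes, 10 were higher in all 4 arms (against 7.73% of all genes). The median of the 24 was 0.37, with 0.27 to 0.46 in the arms. Vim, the intermediate filament of mesenchymal cells, gave 770, 1013, 282 and 527 at day 0 and 1695, 2375, 1687 and 1006 at day 7 (1.44, SE 0.34, adjusted p = 0.399). Only the day 7 array of MET_KO_canertinib and the day 0 array of MET_KO touched, at 1006 and 1013. Krt8, the keratin of hepatocytes, was 1.02 and 1.14 higher without canertinib and 0.17 and 0.41 higher with it (mean 0.68, SE 0.21). Of its other 2 probe sets, the brighter had 0.90 and 1.21 without canertinib and 0.18 and 0.06 with it. The dimmer had 1.20 and 1.12 without it and 0.98 and 1.10 with it. Tpm1, a tropomyosin, was 0.79 higher and Tmsb10, a thymosin that binds actin, 0.80 higher, both in 4 of 4 arms. Their other probe sets did not all share this direction, with means from -0.30 to 2.56 for Tpm1 and from -0.71 to 1.75 for Tmsb10.

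Among 15 genes of TGF-beta and activin signalling, 4 were higher in all 4 arms (against 7.73% of all genes) and none was lower in all 4. However, 7 had a mean difference below 0 and the median was 0.08. Tgfb1, the ligand, had differences of 0.06, 1.32, 1.30 and 0.34 (mean 0.75, SE 0.22, adjusted p = 0.488), and its other probe set had a mean of -0.02. Inhbc and Inhba, subunits of activins, were 0.50 higher (SE 0.22) and 0.93 higher (SE 0.43), each in 4 of 4 arms, with adjusted p-values of 0.683 and 0.703.

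Most acute phase genes, whose products the liver secretes in inflammation, were higher in value at day 7 in each arm but MET_FLOX_canertinib. Their list medians were larger without canertinib. Of 24 acute phase genes, 22 had a mean difference above 0, and 5 were higher in all 4 arms (against 7.73% of all genes). At an unadjusted p below 0.05, 9 were higher (against 3.34%), and none was called. By arm, 22 of the genes were higher for MET_FLOX and 23 for MET_KO, against 20 with both blocks and 9 with canertinib alone. The medians were 1.25, 1.40, -0.35 and 0.39 in MET_FLOX, MET_KO, MET_FLOX_canertinib and MET_KO_canertinib (0.67 over the means). Summed over the 24 genes, the day 0 signal was 299680 in MET_FLOX and 219714 in MET_KO, against 901402 and 463647 in the canertinib arms. At day 7 the sums were 631848, 507585, 714465 and 670467, so the arms were closer at day 7 than at day 0.

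Saa1, serum amyloid A, gave 5524, 1977, 94050 and 61208 at day 0 and 54346, 43645, 61574 and 79341 at day 7. It was far higher in the canertinib arms at day 0 than in the others, and the 4 arms were within a narrower range at day 7. The canertinib difference in the response was -3.99 (SE 0.84, limma adjusted p = 0.239, not called). Orm2, an orosomucoid, gave 1770, 350, 4112 and 4391 at day 0 and 38136, 28670, 18142 and 8171 at day 7. All day 7 signals were above all day 0 signals, with a difference of 3.44 (SE 0.74, adjusted p = 0.399), and without the MET_KO_canertinib day 7 array it was called at 4.38 (adjusted p = 0.0182). Orm3 gave 457, 336, 170 and 896 at day 0 and 2666, 1785, 1652 and 965 at day 7 (2.03, SE 0.46), and it was also called without that array. Orm genes are near-identical copies whose probe sets may share signal. Fgl1, a fibrinogen-like hepatokine, was 1.09 higher (SE 0.25), from 9382 to 22954 at day 0 and 22947 to 38208 at day 7.

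Cebpb, a transcription factor of the acute phase, had signals of 4349, 1564, 7805 and 4566 at day 0 and 7729, 8210, 8502 and 6277 at day 7. Its differences were 0.83 and 2.38 without canertinib and 0.12 and 0.46 with it (mean 0.95, SE 0.35, adjusted p = 0.653).

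Macrophage markers had different directions in the arms. Of 8 markers, 6 were higher, 8, 8 and 0 in MET_FLOX, MET_KO, MET_FLOX_canertinib and MET_KO_canertinib. The medians were 0.45, 0.65, 1.90 and -0.68. Summed over the 8 genes, the signal went from 27390 to 44307 in MET_FLOX, from 19154 to 36721 in MET_KO, from 15869 to 67150 in MET_FLOX_canertinib and from 23580 to 14186 in MET_KO_canertinib. With 1 array in each arm and day, this difference between arms has no replicate check and was not tested.

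Marco, a scavenger receptor of resident macrophages, gave 504, 231, 689 and 875 at day 0 and 3885, 4610, 6292 and 640 at day 7. The first 3 arms were higher by 2.91, 4.23 and 3.16, and MET_KO_canertinib had -0.44. Over the 4 arms the difference was 2.46 (SE 0.65, adjusted p = 0.401), and without the MET_KO_canertinib day 7 array Marco was called at 3.4 (adjusted p = 0.0175). Cd5l, a secreted protein of Kupffer cells, went from 8340, 4504, 5513 and 8456 to 16794, 13081, 26892 and 4844. Vsig4, a complement receptor of Kupffer cells, and Csf1r, the receptor of macrophage growth factor, had -0.72 and -0.58 in MET_KO_canertinib and 2.0 and 1.90 in MET_FLOX_canertinib.

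**Figure D3:**
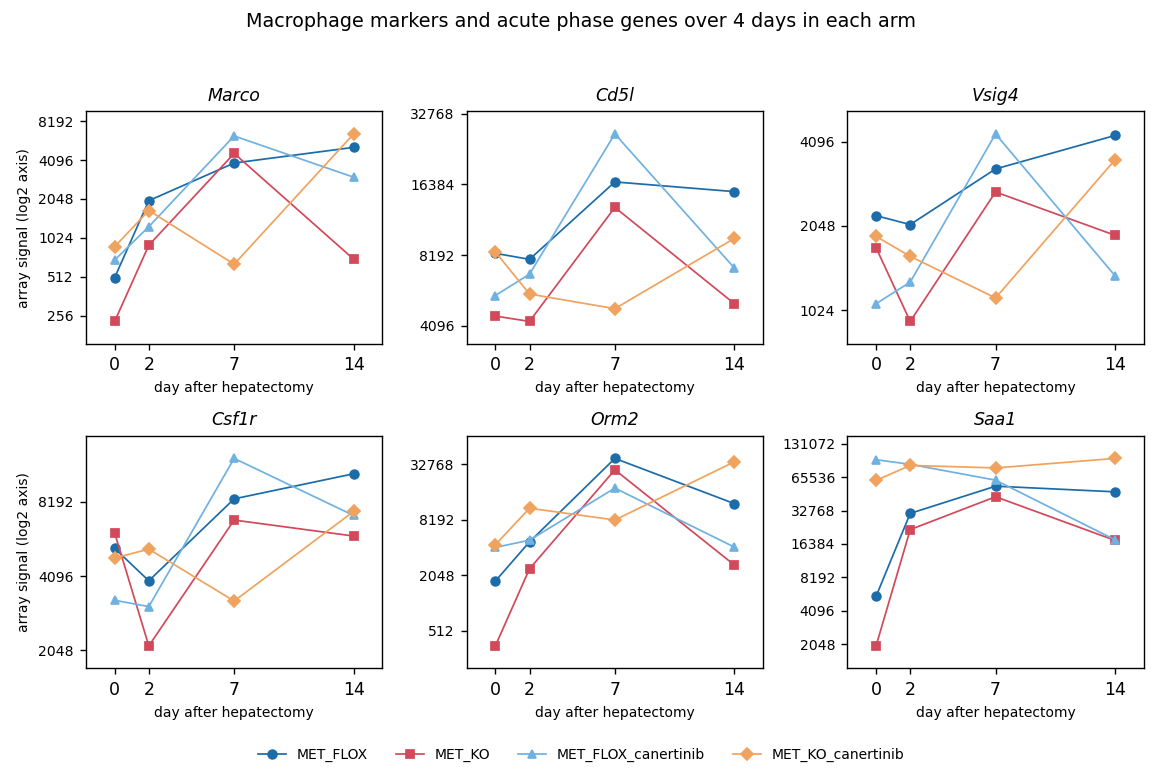
Array signal (log2 axis) against the day after hepatectomy for 4 macrophage markers and the acute phase genes Orm2 and Saa1, with 1 point per array. At day 7 MET_KO_canertinib has the lowest signal of the 4 arms for each macrophage marker and for Orm2, and Saa1 starts high in both canertinib arms.

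Xaf1, Usp18, Ifi47 and Igtp, which are 4 of the 6 genes with the smallest p-values for a difference in response between arms with and without canertinib, are induced by interferon. Many genes that interferon induces carry the interferon-stimulated response element, a tandem GAAA repeat, in their promoters. Xaf1, an interferon-induced partner of the apoptosis inhibitor XIAP, was the 1 gene called for this difference, 0.00737% of the genes tested, while 733 genes (5.4%) had an unadjusted p below 0.05. Its signals were 786, 533, 1802 and 2532 at day 0 and 1840, 1710, 398 and 270 at day 7, in the order MET_FLOX, MET_KO, MET_FLOX_canertinib, MET_KO_canertinib. The 2 canertinib arms started high and ended low, and the other 2 did the reverse. The canertinib minus no canertinib difference was -4.08 (SE 0.43, limma adjusted p = 0.0218). A second probe set of Xaf1 gave 1.14 and 0.07 without canertinib and -1.14 and -1.41 with it. Xaf1 was not called with the 8 arrays alone (adjusted p = 0.0909) and in 10 of the 16 fits that left out 1 array (adjusted p 0.0707 to 0.321). Over the 16 fits the difference lay between -4.61 and -3.54. At day 14, when all 4 arrays lay in the high set, Xaf1 gave 570, 587, 359 and 436.

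Of 19 genes in the interferon response list, which does not hold Xaf1, 13 were higher in both arms without canertinib and lower in both with it, against 5.15% of all genes. For 15 of them the difference in response was below 0 at an unadjusted p below 0.05, against 2.4% of all genes, and none was called. The list medians were 0.32, 0.54, -1.38 and -2.02 in MET_FLOX, MET_KO, MET_FLOX_canertinib and MET_KO_canertinib. The summed signal of the list at day 0 was 36426 and 33582 without canertinib and 63869 and 71591 with it. At day 7 it was 46834, 50106, 24476 and 19776. The order of the arms at day 7 was thus the reverse of that at day 0. This difference cannot be told apart from the array set.

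Usp18, the protease that removes ISG15 from proteins, gave 1276, 1082, 3549 and 3356 at day 0 and 2324, 2609, 717 and 751 at day 7 (difference in response -3.27, SE 0.45, limma adjusted p = 0.0749, not called). Igtp, an interferon-induced GTPase, gave 3518, 2766, 5686 and 5420 at day 0 and 3498, 3938, 1172 and 1218 at day 7 (-2.45, SE 0.36). Ifi47, another such GTPase, gave 1161, 1595, 2841 and 2834 at day 0 and 2045, 2208, 774 and 1026 at day 7 (-2.29, SE 0.33). For each of these 3 genes the canertinib arms were above the others at day 0 and below them at day 7.

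Phf11d had a difference in response of -2.31 (SE 0.35), and the list's Irgm1, Iigp1 and Ifit3 had -1.78, -1.94 and -2.59, with adjusted p-values from 0.0749 to 0.633. Irgm1 and Iigp1 are GTPases that restrict pathogens inside cells, and Ifit3 is an antiviral protein with tetratricopeptide repeats. In the other direction stood Ube2g2, a ubiquitin-conjugating enzyme of the endoplasmic reticulum's protein disposal. It gave 952, 908, 98.9 and 97.0 at day 0 and 1057, 944, 725 and 1034 at day 7 (2.85, SE 0.37, adjusted p = 0.0731, not called), with the lowest signals in the canertinib arms at day 0. Its other probe set, which is dimmer, gave a difference in response of -0.75, the opposite direction.

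The promoters of Xaf1, Igtp, Irgm1 and Ifit3 are shown because the motif searched stands in some of them. Those of the other genes named above are not shown. Each sequence runs from 250 bases before to 50 bases after the gene's start, from RefSeq on build GRCm38.p6, in the direction of the gene, with matches to GAAANNGAAA or its reverse complement TTTCNNTTTC in capitals.
Xaf1, chr11:72301379-72301678, plus strand: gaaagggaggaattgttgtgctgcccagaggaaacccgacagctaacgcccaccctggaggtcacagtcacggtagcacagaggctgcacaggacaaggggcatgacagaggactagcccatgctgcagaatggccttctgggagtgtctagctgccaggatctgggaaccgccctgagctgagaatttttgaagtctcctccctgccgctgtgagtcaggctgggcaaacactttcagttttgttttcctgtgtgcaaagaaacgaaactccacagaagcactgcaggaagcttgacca
Igtp, chr11:58199306-58199605, plus strand: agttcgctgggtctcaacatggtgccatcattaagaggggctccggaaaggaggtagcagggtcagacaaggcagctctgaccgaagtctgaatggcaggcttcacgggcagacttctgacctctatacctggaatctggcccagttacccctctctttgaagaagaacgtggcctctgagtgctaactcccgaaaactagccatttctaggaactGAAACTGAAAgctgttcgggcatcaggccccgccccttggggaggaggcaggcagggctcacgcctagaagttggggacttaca
Irgm1, chr11:48871371-48871670, minus strand: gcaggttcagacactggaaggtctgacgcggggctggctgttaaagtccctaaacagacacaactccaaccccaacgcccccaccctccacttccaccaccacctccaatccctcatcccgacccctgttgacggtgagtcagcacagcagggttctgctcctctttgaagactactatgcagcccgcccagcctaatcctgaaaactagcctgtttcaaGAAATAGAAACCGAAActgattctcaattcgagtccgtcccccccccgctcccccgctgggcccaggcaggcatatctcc
Ifit3, chr19:34583279-34583578, plus strand: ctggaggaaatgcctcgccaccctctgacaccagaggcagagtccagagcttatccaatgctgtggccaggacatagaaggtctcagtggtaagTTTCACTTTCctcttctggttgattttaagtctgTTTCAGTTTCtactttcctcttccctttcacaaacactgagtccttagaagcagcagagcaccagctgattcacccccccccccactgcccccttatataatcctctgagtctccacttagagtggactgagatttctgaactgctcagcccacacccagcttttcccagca
Igtp had 1 match, which began at position -34 from the gene's start. Irgm1 had 2 matches that overlap, Ifit3 had 2, and the window of Xaf1 held none. Of the 16 list genes with a promoter sequence, 9 held the motif, against 3.99% of 27025 genes with a promoter. A match is a description of the letters and no measure of binding.

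**Figure D4:**
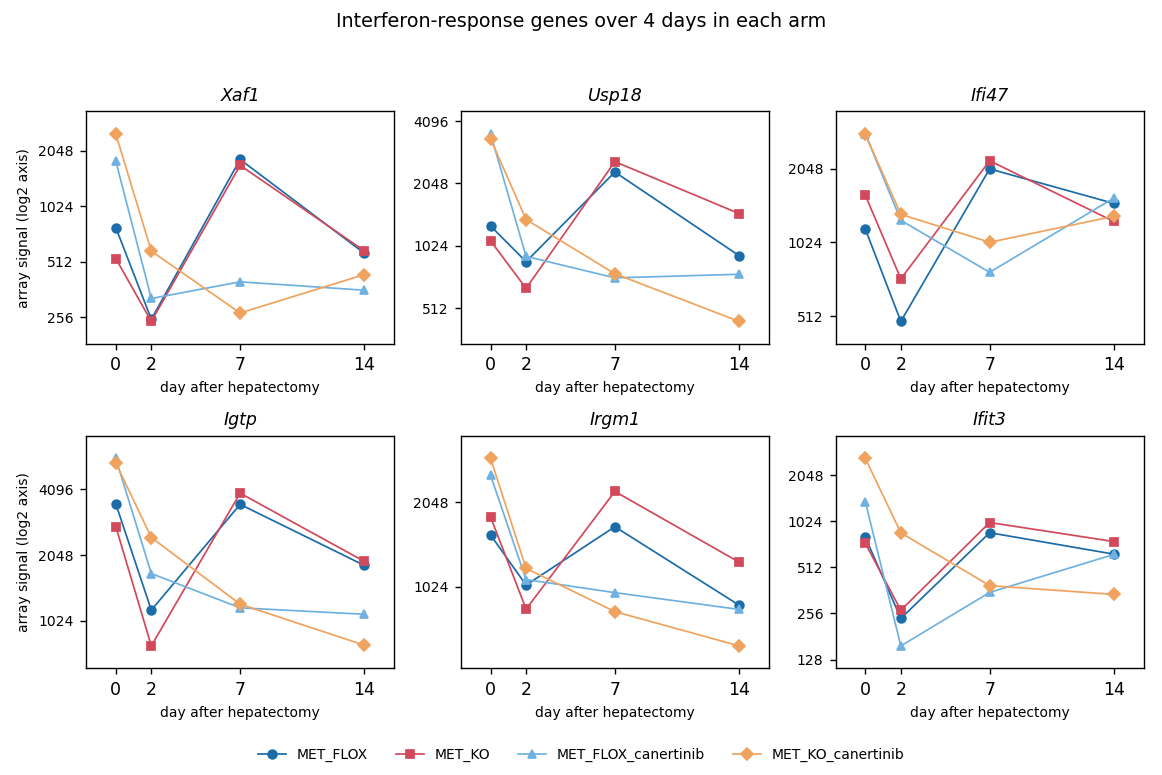
Array signal (log2 axis) against the day after hepatectomy for 6 interferon-induced genes, with 1 point per array. At day 0 the canertinib arms have the highest signals and at day 7 the lowest, while the arms without canertinib have low signals at day 2 and higher ones at day 7.

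No gene was called for a difference in response between the knockout and flox arms (limma, smallest adjusted p 0.618), and 405 genes (2.98%) had an unadjusted p below 0.05. The smallest p-values belonged to Mal, a proteolipid of membrane traffic, whose response was 1.35 in flox arms and -1.93 in knockout arms (difference -3.28, SE 0.51). Jpx, a noncoding RNA, had 0.86 and -1.89, and Faap24, a subunit of the Fanconi anaemia core complex, had -1.39 and 0.71. The transcription cofactor gene Sertad2 had 0.59 and -0.84, but its other probe set, which is dimmer, gave a difference of -0.08. Rtel1, a DNA helicase of telomere maintenance, and 4930517E11Rik followed with differences of -3.82 and -2.56, both not called. The other 3 probe sets of Rtel1 went the opposite way, from 0.14 to 0.68.

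Over 15 genes of bile acid transport and the FXR pathway the median was -0.07, with -0.56 in MET_FLOX. Of the 15, 3 were lower in all 4 arms (against 8.92% of all genes). Besides Slc10a1 these were Klb, the coreceptor of FGF signals to bile acid synthesis, at -0.54 (SE 0.17), and Slco1a1, an organic anion transporter, at -1.23 (SE 0.40). Slco1a1 gave 2660, 10676, 3826 and 1809 at day 0 and 963, 1462, 2691 and 1674 at day 7, with most of the difference in the arms without canertinib. Of 14 genes of bile acid synthesis, 2 were lower in all 4 arms (against 8.92% of all genes) and the median was -0.12.

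In retinoid metabolism, Rdh16, a retinol dehydrogenase, was lower in 4 of 4 arms (-0.72, SE 0.18, limma adjusted p = 0.399), and Cyp26a1, the enzyme that breaks down retinoic acid, was higher in 4 of 4 arms (0.995, SE 0.28, adjusted p = 0.468). Rdh11 (-1.06) and Retsat (-0.85) were lower in 3 of 4 arms. Retsat gave 19535, 8034, 4286 and 7858 at day 0 and 5623, 4777, 5093 and 3656 at day 7, so its largest difference was in MET_FLOX and it was higher in MET_FLOX_canertinib. Over the 16 genes of the list the median was 0.03.

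In the growth hormone and IGF axis, 5 of 17 genes were lower in all 4 arms (against 8.92% of all genes). In all 4 arms 1 was higher (against 7.73%), and the median was -0.08. Igf1r, the receptor of IGF1, was lower by 0.23 to 0.88 in the arms (mean -0.62, SE 0.17, adjusted p = 0.461). Socs2, a feedback inhibitor of growth hormone signalling, gave 685, 578, 902 and 853 at day 0 and 420, 347, 613 and 588 at day 7. This probe set was lower in each arm, from -0.52 to -0.71 (mean -0.62, SE 0.18, adjusted p = 0.49). Its other 5 probe sets had means from -1.60 to 0.43, 2 of them above 0, and the one nearest in brightness had -1.72, 1.10, 0.20 and -0.58 in the arms.

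In carbohydrate metabolism, Pck1, the enzyme that commits carbon to gluconeogenesis, gave 20689, 11723, 12248 and 9894 at day 0 and 28803, 24532, 18034 and 16379 at day 7. It was higher in 4 of 4 arms (0.71, SE 0.19, limma adjusted p = 0.419), although the days overlapped between arms, and its other 2 probe sets gave 0.70 and -0.38. Pdk1, a kinase that inhibits pyruvate dehydrogenase, was lower in 4 of 4 arms (-0.79, SE 0.22, adjusted p = 0.468). Over the 15 genes of glycolysis and gluconeogenesis the median was 0.03.

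Of 18 hepatocyte transcription factors, 3 were higher in all 4 arms (against 7.73% of all genes) and none was lower in all 4. Foxa3, a forkhead factor of the liver, had differences of 0.32, 0.95, 1.28 and 0.87 (mean 0.85, SE 0.20, adjusted p = 0.399). Of 11 heat shock genes, 4 were higher in all 4 arms and 2 lower in all 4 (against 7.73% and 8.92% of all genes). At an unadjusted p below 0.05, 4 were higher (against 3.34%). The median was 0.31, and Hspa1b stood far from the rest. Hsph1 (0.56), Bag3 (0.48) and Hspa8 (0.38), a chaperone, a cochaperone and the constitutive HSP70, were each higher in 3 of 4 arms. In the ER stress list 19 of 22 genes had a mean difference above 0, with a median of 0.28. In all 4 arms 5 were higher (against 7.73% of all genes). Slc1a4, an amino acid transporter that is not in the ER stress list, went from 166, 73.5, 79.3 and 133 to 329, 283, 181 and 303. Its difference was 1.20 (SE 0.32, adjusted p = 0.401), and its other 2 probe sets gave 0.79 and 0.06. The last of these had a higher mean signal on the 8 arrays (315 against 193) and was below 0 in MET_KO and MET_FLOX_canertinib.

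The blocked receptors themselves were measured in the same arrays. Met gave 1577, 2066, 1118 and 1422 at day 0 and 1962, 2036, 2014 and 1285 at day 7 (0.25, SE 0.16, limma adjusted p = 0.773), and its second, dimmer probe set gave -0.45. The position of either probe set relative to exon 16 is unknown here, and neither checks the deletion. Egfr gave 3308, 11223, 6964 and 2764 at day 0 and 7621, 7706, 7799 and 6514 at day 7. The day 0 signals spread widely and the day 7 signals did not, and the difference was 0.51 (SE 0.29, adjusted p = 0.733), with 2 of its 6 other probe sets below 0. Of 17 genes of ligands, receptors and adaptors of MET and EGFR, 0 were higher and 1 was lower in all 4 arms. Over all genes these shares were 7.73% and 8.92%.

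**Figure D5:**
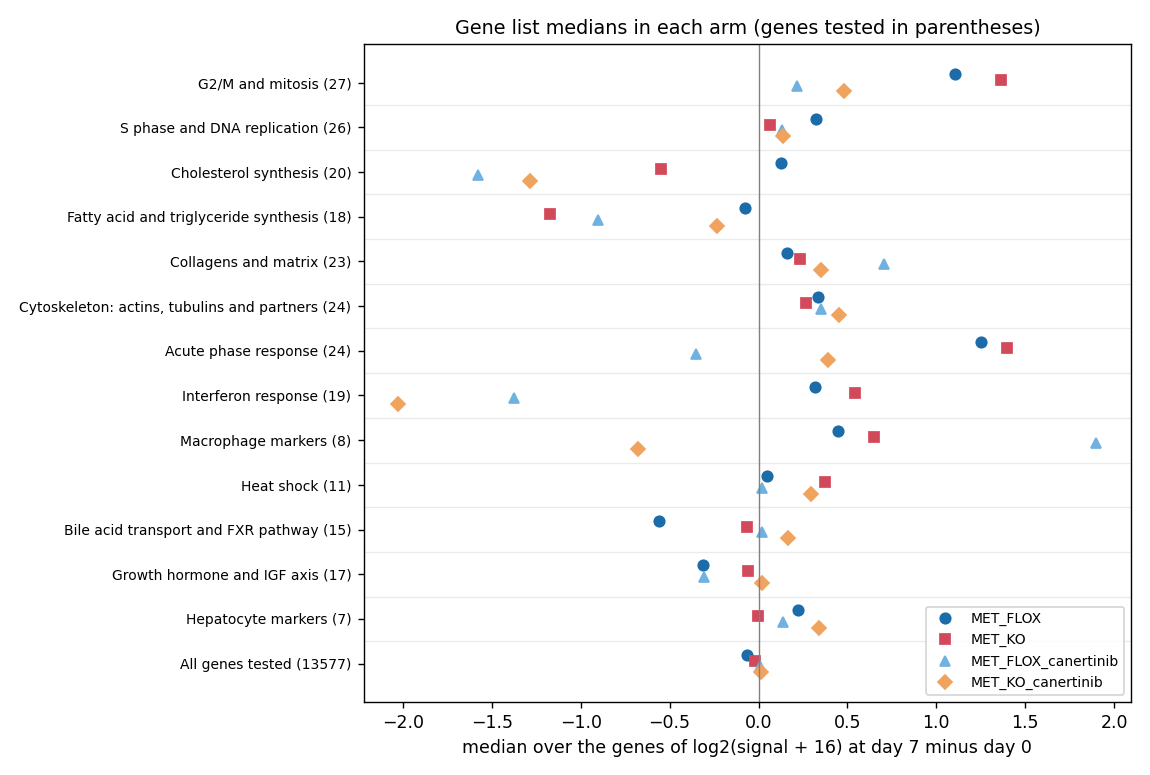
Median over the genes of each list of log2(signal + 16) at day 7 minus day 0, with 1 symbol per arm and the number of genes tested in parentheses. Mitosis is above 0 in each arm, cholesterol synthesis is above 0 in MET_FLOX alone, and the interferon list parts the canertinib arms from the others, while all genes lie between -0.06 and 0.01 and hepatocyte markers between -0.002 and 0.34.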

How the data were processed

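Per the submitters' processing notes, the authors made linear signal intensities with MAS5 before they deposited them, 1 value per probe set. The MAS5 version and detection calls are not given in the sources used here. Per the values, the authors scaled each array to a trimmed mean of 500 (2% of probe sets left out at each end). Per the labels' protocols, 6 ug of total RNA gave the cRNA of an array.

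Of 45101 probe sets, 34945 named 1 gene, 932 several and 9160 none (64 controls). At least 4 of 16 arrays lay above their own median for 26866 of the probe sets that were not controls. Of these, the probe sets that named 1 gene were kept, and the brightest stood for its gene (13577 genes). limma 3.58.1 in R 4.3.3 was fitted to log2(signal + 16) of all 16 arrays with arm, day and array set as terms and an intensity trend (8 residual degrees of freedom, two-sided, Benjamini-Hochberg adjusted, called below 0.05). The array sets were parted at a median of 216.35. Differences in response had 6 (canertinib) and 5 (genotype) residual degrees of freedom. The scripts were tested on simulated data.

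Named were up to 12 genes in each direction with the smallest p-values and 1 direction in 4 arms, up to 4 per list by smallest p over 49 lists, 6 per difference in response, and Met and Egfr. Members and lists were chosen with earlier results of these data known. Alternatives covered pseudocount, scaling, filter, probe set choice, trend, arrays in the fit and each array left out. The number of arrays limits the precision.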

Additional observations from a re-analysis of the deposited data

Results flagged for a closer look

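Several responses differed between arms under the same contrast. The difference in day 7 response of Xaf1 with canertinib minus without it was -4.08, called in limma with an adjusted p of 0.0218, and the arms of each kind moved in opposite directions. For Usp18 (-3.27), Ifi47 (-2.29) and Phf11d (-2.31) the arms also moved in opposite directions, but none was called at an adjusted p of 0.0749.

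Between knockout and flox arms, opposite directions were found for Mal (-3.28), Jpx (-2.74), Faap24 (2.10), Sertad2 (-1.43) and 4930517E11Rik (-2.56), the value being the response in knockout arms minus that in flox arms. None of these was called, and the other probe set of Sertad2 was below 0 in each arm.

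List medians with opposite signs in arms with and without canertinib were not tested. Canertinib minus no canertinib, they differed by -2.13 for interferon response, -0.57 for glutathione transferases and NRF2 targets, -0.35 for cytokines and chemokines, 0.25 for cytochromes P450, 0.40 for periportal hepatocytes, 0.41 for bile acid transport and 0.64 for endothelial markers. Knockout minus flox, they differed by 0.49 for fetal liver genes and 1.31 for muscle and mesothelium markers, a list of 4 genes, and this was not tested either. At days 0 and 7 canertinib and the array set cannot be told apart.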

How the results depend on the processing

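The count of genes called at day 7 stayed at 1, Etfbkmt, under both other pseudocounts, both other scalings, both other filters and no intensity trend. It was 0 with the mean over probe sets of the gene and with the 8 arrays of days 0 and 7. It was also 0 with the 8 arrays and no replicate block (adjusted p of Etfbkmt 0.0743), and without the arms MET_FLOX, MET_KO and MET_FLOX_canertinib, 1 arm at a time. Leaving out 1 array at a time gave 1 to 4 genes, with Etfbkmt among them each time. The counts were 3 without MET_FLOX day 7 (with Me1 and 4930483J18Rik), 2 without MET_KO_canertinib day 2 (with Pklr) and 4 without MET_KO_canertinib day 7 (with Orm2, Orm3 and Marco). The count for the canertinib difference, 1, was 0 with no intensity trend and with the 8 arrays, and 0 to 15 with 1 array left out. With the mean over probe sets it was 1, but the gene was Zbp1 and not Xaf1. The genotype difference gave 0 genes in each setting. Met reversed, from 0.25 to -0.10, with the mean over probe sets. Each arm and day had 1 array, so arm is the only block.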
